A study of Mus musculus with 3 samples.

Results

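The 35 genes described here make cholesterol, sense it, make and desaturate fatty acids, or move cholesterol out of the cell under the liver X receptors (LXR). They were taken by symbol from the 22548 genes of a single-cell data set, all 35 were found, and all 35 had at least 100 mRNA molecules over the kept cells. They fall into 17 sterol synthesis genes, 3 genes of sterol sensing and transport, 8 fatty acid genes and 7 LXR and export genes. The cells were migratory dendritic cells other than Langerhans cells and cDC1, sorted from ear-draining lymph nodes of mice painted with MC903 (calcipotriol), a compound related to vitamin D that inflames skin. MC903 was given on days 0, 2 and 4, and cells were sorted on day 5 as B220-, MHCII high, CD11c low to intermediate, XCR1- and CD326-.

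All mice carried the same alleles, Siglech-iCre (Tg/0), ROSA26 LoxP-STOP-LoxP-RFP and Tnfsf4 KI/+, the last with a BFP reporter, and all were treated with MC903, so no untreated or wild-type group was compared here. RFP marks a cell in which the Cre driven by Siglech, a gene best known from plasmacytoid dendritic cells, acted at some time, and it stays on afterwards. BFP reports Tnfsf4, which encodes OX40L, a costimulatory ligand for T cells. The 4 sorted populations were double positive (BFP+RFP+), RFP single positive (BFP-RFP+), BFP single positive (BFP+RFP-) and double negative (BFP-RFP-). Where 4 values are listed across the populations, they stand in this order. Each received its own hashtag antibody and all were pooled into 1 capture, together with tag antibodies to CD11b, CD172a, CD301b and CD8a (CITE-seq, which counts mRNA and antibody tags of the same cell). Each population is therefore 1 sample, no test between populations was possible and no p-value is given. The sources used here do not give the number, age or sex of the mice.

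Cells build cholesterol from acetyl-CoA through the mevalonate pathway to squalene and from there through lanosterol. When membrane sterol is low, the transcription factor SREBP2 is released and switches on nearly all of these enzymes, and when sterol is plentiful INSIG1 holds it back. Excess sterol gives oxysterols that activate LXR, which turns on the exporters ABCA1 and ABCG1, the lipid carrier APOE and, through SREBP1c, fatty acid synthesis. In dendritic cells and macrophages, membrane cholesterol is known to bear on migration, antigen presentation and inflammatory signalling.

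Promoters of some members hold short elements known from this circuit. Of the 35 genes, 27 were in the RefSeq promoter table (mouse GRCm38.p6, 250 bases before to 50 after each start, 35 windows). A sterol response element, searched on both strands as TCACNCCAC, was in 1.24% of the 32851 windows of all genes and in 1 of the 27 members, Hmgcs1. An LXR element of 2 half-sites, searched on both strands as GGTNA followed after 5 bases by GGTCA, was in 0.207% of all windows and in 3 members, Abca1, Srebf1 and Fasn. A CCAAT box, searched as CCAATCA on both strands, was in 7.82% of all windows and in 12 members, most of them sterol synthesis genes, among them Idi1 and Lss. These patterns are short, a match is a description only, and no match says only that these letters are not in the window. The stretches below are shown because they hold the sterol response element, the LXR element or, for Idi1 and Lss, a CCAAT box, in capitals, and are written 5′ to 3′ on the strand of the gene.
Hmgcs1, sterol response element, chr13:119690184-119690282, plus strand: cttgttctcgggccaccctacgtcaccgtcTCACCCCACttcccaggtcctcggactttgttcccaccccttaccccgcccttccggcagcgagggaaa
Idi1, CCAAT box, chr13:8885529-8885605, plus strand: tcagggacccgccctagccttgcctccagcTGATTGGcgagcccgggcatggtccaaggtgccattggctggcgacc
Lss, CCAAT box, chr10:76531511-76531604, plus strand: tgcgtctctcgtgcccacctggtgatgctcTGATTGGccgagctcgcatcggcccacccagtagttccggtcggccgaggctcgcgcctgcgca
Abca1, LXR element, chr4:53159896-53159992, minus strand: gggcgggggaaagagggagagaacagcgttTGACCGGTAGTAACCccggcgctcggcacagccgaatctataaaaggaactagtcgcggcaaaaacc
Srebf1, LXR element, chr11:60210579-60210683, minus strand: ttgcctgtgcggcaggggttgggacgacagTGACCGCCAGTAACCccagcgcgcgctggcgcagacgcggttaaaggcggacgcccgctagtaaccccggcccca
Fasn, LXR element, chr11:120824698-120824797, minus strand: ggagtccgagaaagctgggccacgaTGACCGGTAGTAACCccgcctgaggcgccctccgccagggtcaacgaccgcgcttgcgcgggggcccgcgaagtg

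After filtering, 5023 cells remained, 842 double positive, 982 RFP single positive, 2185 BFP single positive and 1014 double negative, with 14140272 to 35590897 mRNA molecules (UMIs) per population and a median of 13884 to 15182 UMIs per cell. Markers of migratory dendritic cells such as Ccr7 and Fscn1 summed to 7921 to 8095 UMIs per 1000000 mRNA UMIs (CPM) in the 4 populations. In clusters made without the genes described here, 4556 of 5023 cells (90.7%) lay in 9 dendritic clusters, and the rest in a macrophage-like (108 cells), a T and NK cell-like (235), a B cell-like (90) and an unnamed cluster (34). In the unnamed cluster some macrophage markers were raised too, among them C1qa and Cd68. The 8 macrophage markers summed to 37.3, 123, 45.0 and 197 CPM across the populations, so they were more abundant in the BFP- populations. Within dendritic clusters the same sums were 15.6, 32.7, 24.3 and 38.9 CPM, and values in dendritic clusters are given below wherever they change a reading. Levels are CPM of summed UMIs with exact 95% Poisson intervals. Differences are log2 ratios with exact 95% intervals, which cover counting error only and not the spread between mice, sorts or captures. A difference by BFP is BFP+ over BFP- cells of the same RFP state, and a difference by RFP is RFP+ over RFP- cells of the same BFP state. In such sums, fewer cells with an mRNA and less of it per cell cannot be told apart.

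Sterol synthesis was lowest in BFP+RFP+ cells and highest in BFP-RFP- cells. The 17 genes summed to 799.8, 929, 935 and 1044 CPM across the 4 populations. The sum was lower in BFP+ than in BFP- cells by log2 -0.22 (-0.25 to -0.18) within RFP+ and by -0.16 (-0.19 to -0.13) within RFP-. Set against RFP- cells, RFP+ cells had -0.23 (-0.26 to -0.19) when BFP+ and -0.17 (-0.20 to -0.14) when BFP-. The differences are modest in size and had the same sign in all 4 comparisons, of which the BFP and RFP ones share their populations.

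Gene by gene, 13 of the 17 sterol synthesis genes had their lowest level in BFP+RFP+ cells and their highest in BFP-RFP- cells, against 26.6% of the 10888 genes with at least 100 UMIs. The exceptions were Acat2, Mvk, Ebp and Dhcr7. All 3 sensing and transport genes had this order, as did 2 of 8 fatty acid genes, Acaca and Scd1, and 3 of 7 LXR and export genes, Abca1, Abcg1 and Mylip.

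**Figure D1:**
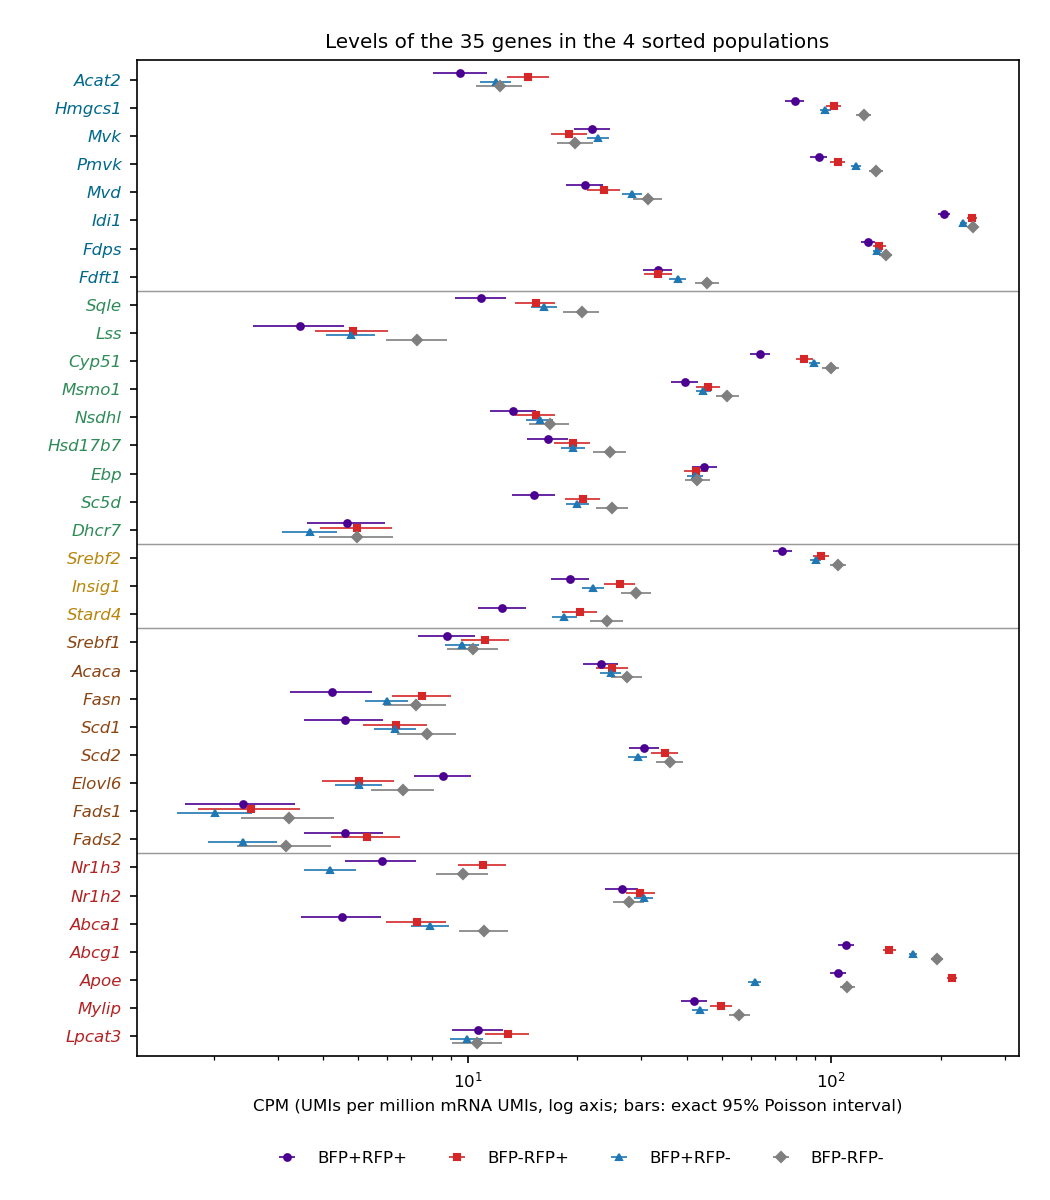
Level of each of the 35 genes in the 4 sorted populations, in CPM on a log axis, with exact 95% Poisson intervals, grouped from top to bottom as mevalonate steps, squalene to cholesterol, sensing and transport, fatty acids, and LXR and export. For most genes of the first 3 groups BFP+RFP+ lies furthest left and BFP-RFP- furthest right (Hmgcs1 79.3 and 123 CPM), whereas Apoe peaks in BFP-RFP+ at 215 CPM.

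Among the mevalonate steps, Hmgcs1, which encodes the synthase that commits acetyl-CoA units to the pathway, had 79.3 CPM (74.7 to 84.1) in BFP+RFP+, 102 (96.6 to 107) in BFP-RFP+, 96.3 (93.1 to 99.6) in BFP+RFP- and 123 (117 to 128) in BFP-RFP- cells. The double positive and double negative cells stood apart from the other 2 populations, whose intervals meet. Its difference by BFP was log2 -0.36 (-0.47 to -0.25) within RFP+ and -0.35 (-0.43 to -0.27) within RFP-, and by RFP -0.28 and -0.27. A difference is called here past log2 0.32 in either direction, the fold limit, which the BFP values of Hmgcs1 passed and the RFP values did not.

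Pmvk and Mvd, the later kinase and the decarboxylase of mevalonate, followed RFP more than BFP. Pmvk had 92.4, 104, 117 and 132 CPM across the 4 populations, with log2 -0.34 (-0.43 to -0.25) and -0.35 (-0.44 to -0.25) by RFP against -0.17 and -0.18 by BFP. Mvd had 21.0, 23.7, 28.4 and 31.3 CPM in the same order, with -0.43 and -0.40 by RFP. For both genes, each RFP+ population lay below each RFP- population.

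Idi1, the isomerase that makes the branched building block dimethylallyl diphosphate, had 204, 244, 230.4 and 246 CPM in the same order of populations, so that BFP+RFP+ cells stood below the other 3. Fdps, which joins these units into farnesyl diphosphate, was nearly level at 126, 136, 134 and 141 CPM. Fdft1, the squalene synthase, had 33.3, 33.4, 37.8 and 45.6 CPM, set apart by its level in BFP-RFP- cells. Mvk, the first mevalonate kinase, was the 1 sterol synthesis gene above 0 in both BFP comparisons, at log2 0.21 (-0.03 to 0.44) and 0.20 (0.01 to 0.40). Acat2, a thiolase at the entry, was lower by BFP within RFP+, at -0.62 (-0.94 to -0.31), and at -0.037 (-0.29 to 0.22) within RFP-, and the difference between the 2 states was not tested.

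After squalene, Sqle and Lss spanned the widest range of the 17 genes. Sqle, the squalene epoxidase and a second control point of the pathway, had 10.9 CPM (9.24 to 12.8) in BFP+RFP+, 15.4 (13.5 to 17.4) in BFP-RFP+, 16.2 (14.9 to 17.6) in BFP+RFP- and 20.6 (18.3 to 23.0) in BFP-RFP- cells, a span of 1.89-fold. Its log2 ratios were -0.50 and -0.35 by BFP and -0.57 and -0.42 by RFP. Lss, the lanosterol synthase that closes the sterol rings, spanned 2.09-fold, with 3.47, 4.83, 4.78 and 7.26 CPM, from 49 UMIs in BFP+RFP+ to 170 in BFP+RFP- cells. Sqle and Lss were the only sterol synthesis genes lower past the fold limit in all 4 comparisons, and 2 of the 4 intervals of Lss reached 0.

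Cyp51, the lanosterol demethylase, had 63.7, 84.2, 89.9 and 99.5 CPM across the 4 populations, with BFP+RFP+ well below the rest (log2 -0.40 by BFP within RFP+ and -0.50 by RFP within BFP+). Sc5d, which puts in the ring double bond near the end, had 15.2, 20.8, 20.03 and 25.0 CPM. Msmo1, Nsdhl and Hsd17b7, which act together to remove the methyl groups, were below 0 by BFP in both RFP states, with log2 ratios from -0.34 to -0.094. Ebp, the isomerase, was level between 42.2 and 44.8 CPM, and Dhcr7, the last reductase, had few UMIs (349) and its lowest level in BFP+RFP- cells.

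Counted over the list, 6 of 17 sterol synthesis genes were lower in BFP+ cells past the fold limit and 0 higher within RFP+, where 22.5% of all genes tested were lower and 6.82% higher. Within RFP- the counts were 5 lower and 0 higher, where 13.3% of all genes were lower and 5.89% higher. By RFP, 6 were lower and 1 higher within BFP+ (all genes 14.9% and 9.71%), and 6 lower and 0 higher within BFP- (all genes 11.3% and 12.8%). The medians of the 17 were log2 -0.21, -0.18, -0.24 and -0.24, beside medians of all genes of -0.099, -0.067, -0.032 and -0.0076. All genes were thus shifted below 0 by BFP, and scaling by TMM, which removes this shift, left 4 and 2 of the 17 genes lower by BFP within RFP+ and RFP-, where 16.2% and 10.2% of all genes were lower. Without a fold limit, 15 of 17 were below 0 in both BFP comparisons, against 49.3% of all genes, and 14 of 17 in both RFP comparisons, against 37.1%.

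The 3 genes of sensing and transport were, like the synthesis sum, lowest in BFP+RFP+ and highest in BFP-RFP- cells. Stard4, a small carrier that moves sterol between membranes, had 12.4 CPM (10.7 to 14.4) in BFP+RFP+, 20.4 (18.2 to 22.7) in BFP-RFP+, 18.5 (17.1 to 19.9) in BFP+RFP- and 24.1 (21.7 to 26.8) in BFP-RFP- cells. BFP+RFP+ cells had the lowest level, with no overlap of intervals. By BFP its log2 ratio was -0.71 (-0.99 to -0.44) within RFP+ and -0.39 (-0.57 to -0.20) within RFP-. Insig1, the sterol-dependent brake on SREBP2, had 19.2, 26.2, 22.2 and 29.0 CPM in the same order, and differed by BFP (-0.45 and -0.39) more than by RFP (-0.21 and -0.15). Srebf2, the gene of SREBP2 itself, had 73.4, 93.8, 90.7 and 104 CPM.

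Of all 35 members, 8 were lower by BFP past the fold limit in both RFP states, against 8.23% of all genes, and 0 were higher, against 2.25%. They were Hmgcs1, Sqle, Lss, Insig1, Stard4, Nr1h3, Abca1 and Apoe. By RFP, 6 members were lower in both BFP states, against 5.9% of all genes, namely Pmvk, Mvd, Sqle, Lss, Abca1 and Abcg1. Fads2 and Apoe were higher, against 5.13% of all genes. With TMM scaling Hmgcs1 and Sqle left the first group (6 members, against 6.14% of all genes) and Pmvk the second (5, against 5.53%). Within dendritic clusters Nr1h3, Abca1 and Apoe left the first group, and Hsd17b7, Sc5d, Fasn and Scd1 joined it (9 members, against 8.01% of all genes).

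**Figure D2:**
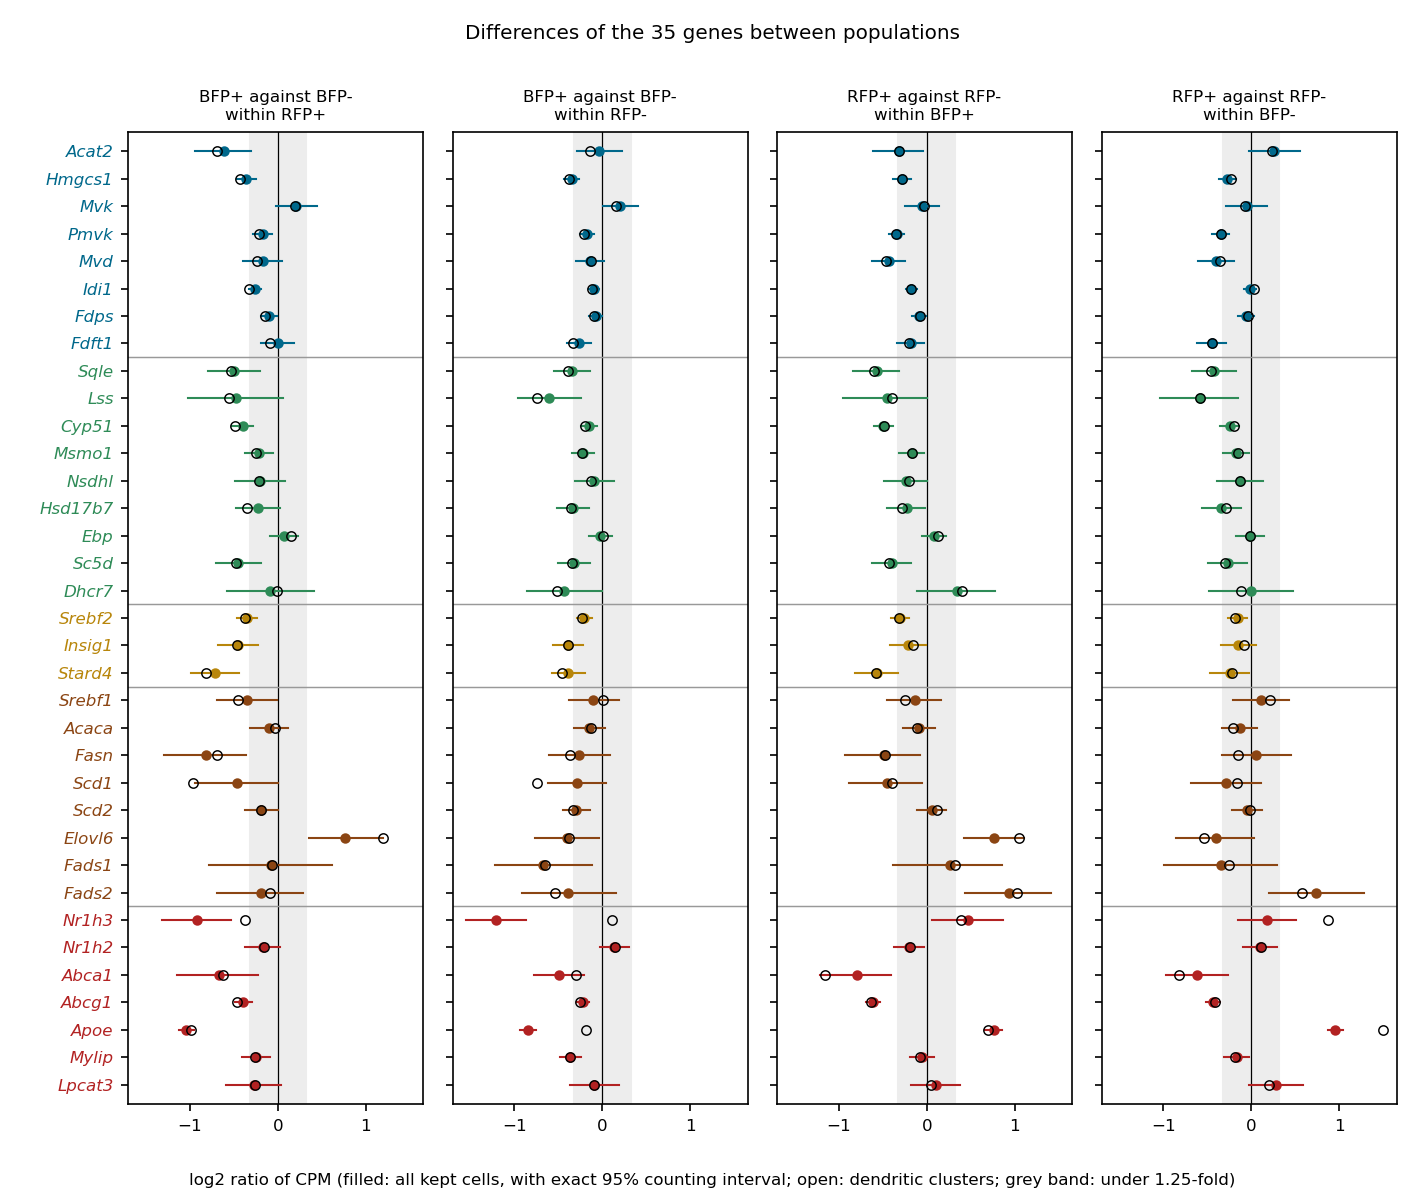
Log2 ratio of CPM for each gene in the 4 comparisons, over all kept cells (filled, with exact 95% counting intervals) and over dendritic clusters (open). The grey band marks differences inside the fold limit (log2 0.32). Most sterol genes lie left of 0 in every panel, Apoe lies left by BFP and right by RFP (-1.04 by BFP within RFP+ and 0.76 by RFP within BFP+), and the open and filled points part mainly for Nr1h3, Apoe, Scd1, Abca1 and Elovl6.

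Export did not form 1 pattern. Abcg1, an exporter that loads sterol onto HDL particles, ran along with synthesis, at 110 CPM (105 to 116) in BFP+RFP+, 144 (138 to 150) in BFP-RFP+, 168 (164 to 172) in BFP+RFP- and 196 (188 to 203) in BFP-RFP- cells. All 4 populations were separate beyond counting error. Its ratio was larger by RFP, at log2 -0.61 (-0.69 to -0.53) and -0.44 (-0.52 to -0.36), than by BFP, at -0.39 and -0.22. Dendritic clusters held 95.3% of its UMIs, and the values there were -0.63 and -0.42 by RFP and -0.47 and -0.25 by BFP.

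Abca1, which loads sterol onto lipid-poor apolipoproteins, had the same order at low level, with 4.53, 7.24, 7.90 and 11.1 CPM across the 4 populations. Only 65.5% of its UMIs lay in dendritic clusters, and within them the difference by RFP was larger, at log2 -1.15 and -0.82 against -0.79 and -0.61 over all cells. By BFP it was at -0.67 and -0.49 over all cells and at -0.63 and -0.30 (-0.64 to 0.058) within dendritic clusters, the last inside the fold limit. Mylip, an LXR-induced ubiquitin ligase that limits lipoprotein uptake, had 41.9, 49.9, 43.5 and 55.9 CPM and differed more by BFP (log2 -0.25 and -0.36) than by RFP (-0.053 and -0.17).

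Apoe, the apolipoprotein that carries exported lipid, ran the other way with RFP. It had 105 CPM (99.3 to 110.0) in BFP+RFP+, 215 (208 to 222) in BFP-RFP+, 61.6 (59.0 to 64.2) in BFP+RFP- and 111 (105 to 116) in BFP-RFP- cells. BFP-RFP+ cells were highest, BFP+RFP- cells lowest, and the other 2 overlapped. The log2 ratios were -1.04 (-1.13 to -0.95) and -0.85 (-0.94 to -0.75) by BFP, and 0.76 (0.67 to 0.86) and 0.96 (0.87 to 1.04) by RFP.

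Much of the Apoe mRNA lay outside dendritic clusters. Dendritic clusters held 63.4% of its UMIs and 5 cells held 10.2%. The macrophage-like cluster had 576 CPM, the B cell-like one 554 and the unnamed cluster of 34 cells 7482. In this unnamed cluster C1qa, C1qb, C1qc and Cd68 were raised. Its macrophage markers summed to 1318 CPM, beside 1658 in the macrophage-like cluster. It was shallow, with a median of 2838 UMIs per cell, and held 7, 22, 4 and 1 cells of the 4 populations. Within dendritic clusters the difference by BFP remained -0.99 in RFP+ cells but was only -0.18 in RFP- cells, and by RFP it was 0.69 and 1.501. Given the same mix of dendritic clusters in each population, the difference by RFP within BFP+ turned to -0.18.

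Of the receptors, Nr1h2 (LXR beta), the broadly expressed one, was level at 26.5, 29.8, 30.5 and 27.8 CPM across the 4 populations. Nr1h3 (LXR alpha), typical of macrophages, had 5.80, 11.0, 4.19 and 9.68 CPM, with log2 -0.92 and -1.21 by BFP. The macrophage markers had the same order by BFP, and only 49.1% of its UMIs came from dendritic clusters, where its ratios by BFP were -0.37 and 0.12. Lpcat3, an LXR target that places polyunsaturated chains in phospholipids, was level between 9.95 and 12.9 CPM. Counted together, 4 of the 7 LXR and export genes were lower by BFP past the fold limit within RFP+ (22.5% of all genes) and 4 within RFP- (13.3%), with 0 higher in either. Within dendritic clusters these counts were 4 and 1, beside 20.7% and 14.6% of all genes. By RFP, 2 were lower and 2 higher within BFP+ (all genes 14.9% and 9.71%), and 2 lower and 1 higher within BFP- (all genes 11.3% and 12.8%).

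Of the 8 fatty acid genes, 7 were below 0 by BFP in both RFP states, against 49.3% of all genes, and 0 passed the fold limit in both. By RFP 2 were below 0 in both BFP states, against 37.1% of all genes, and the order of the populations varied from gene to gene. Acaca, the carboxylase that makes malonyl-CoA, was level at 23.3, 25.0, 24.7 and 27.4 CPM across the 4 populations. Fasn, the synthase, had 4.24, 7.49, 5.98 and 7.19 CPM and was lowest in BFP+RFP+ cells (log2 -0.81, -1.29 to -0.36, by BFP within RFP+). Srebf1, which encodes SREBP1, lay between 8.77 and 11.2 CPM. By BFP, 3 of 8 were lower and 1 higher within RFP+ (all genes 22.5% and 6.82%), and 3 lower and 0 higher within RFP- (all genes 13.3% and 5.89%). Within dendritic clusters 6 of 8 were lower within RFP-, beside 14.6% of all genes. By RFP, 2 were lower and 2 higher within BFP+ (all genes 14.9% and 9.71%), and 2 lower and 1 higher within BFP- (all genes 11.3% and 12.8%).

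Elovl6, which lengthens palmitate to stearate, was the exception, with its highest level in BFP+RFP+ cells. It had 8.56 CPM (7.10 to 10.2) there, against 5.02 (3.97 to 6.25) in BFP-RFP+, 5.03 (4.32 to 5.82) in BFP+RFP- and 6.65 (5.41 to 8.10) in BFP-RFP- cells. Within dendritic clusters the excess by BFP within RFP+ was log2 1.20, and it was above 0 in each of the 7 dendritic clusters with at least 20 cells on both sides. Few UMIs lay behind each cluster value (log2 0.64 to 1.81), so their shared sign is a description only. Fads2, a desaturase of polyunsaturated fatty acids, was higher with RFP, with 4.60, 5.27, 2.42 and 3.16 CPM across the populations. Its ratios by RFP were 0.93 (0.44 to 1.41) and 0.73 (0.21 to 1.29), from 47 to 86 UMIs per population.

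Fads1, the partner desaturase, had 34 to 72 UMIs per population and no order that its intervals resolve. The stearoyl-CoA desaturases Scd1 and Scd2 are close paralogs, and reads shared between them cannot be assigned here. Scd2 had 30.6, 34.9, 29.4 and 36.0 CPM across the 4 populations, with log2 -0.19 and -0.29 by BFP. Scd1 had 4.60, 6.35, 6.32 and 7.73 CPM, but the B cell-like cluster had 181 CPM and dendritic clusters only 63.2% of the UMIs. Within dendritic clusters Scd1 was lower by BFP at -0.97 and -0.74.

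Synthesis and export peaked in different clusters of dendritic cells. The clusters were made without these genes, so their levels are descriptions and were not tested. The sterol synthesis sum was highest in cluster 1 at 1379 CPM (1358 to 1402), led by Edil3 and Ifitm1, and in cluster 3 at 1307 (1283 to 1332), led by Cxcl1 and Egr1, and lay between 743 and 909 CPM in the other 6 dendritic clusters of at least 20 cells. Stard4 peaked in cluster 3 at 39.3 CPM. Abcg1 was highest in cluster 4, led by Shisa9 and Dclk1, at 334 CPM (322 to 347) and lowest in cluster 6 at 57.2 (53.6 to 61.0). Apoe was the reverse, at 197 CPM (190.2 to 204) in cluster 6 and 7.44 (5.68 to 9.58) in cluster 4.

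Across these 8 clusters, Pearson's r of Abcg1 with Apoe was -0.76 (Spearman's rho -0.62), and r of the sterol synthesis sum with Abcg1 was -0.069 (rho 0.21), given as descriptions since the clusters share 1 capture. The populations differed in their clusters. Cluster 6, low in Abcg1 and high in Apoe, held 35.5%, 21.8%, 10.5% and 5.33% of the cells across the 4 populations. Cluster 1, high in synthesis, held 2.02%, 5.40%, 17.5% and 15.5%.

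**Figure D3:**
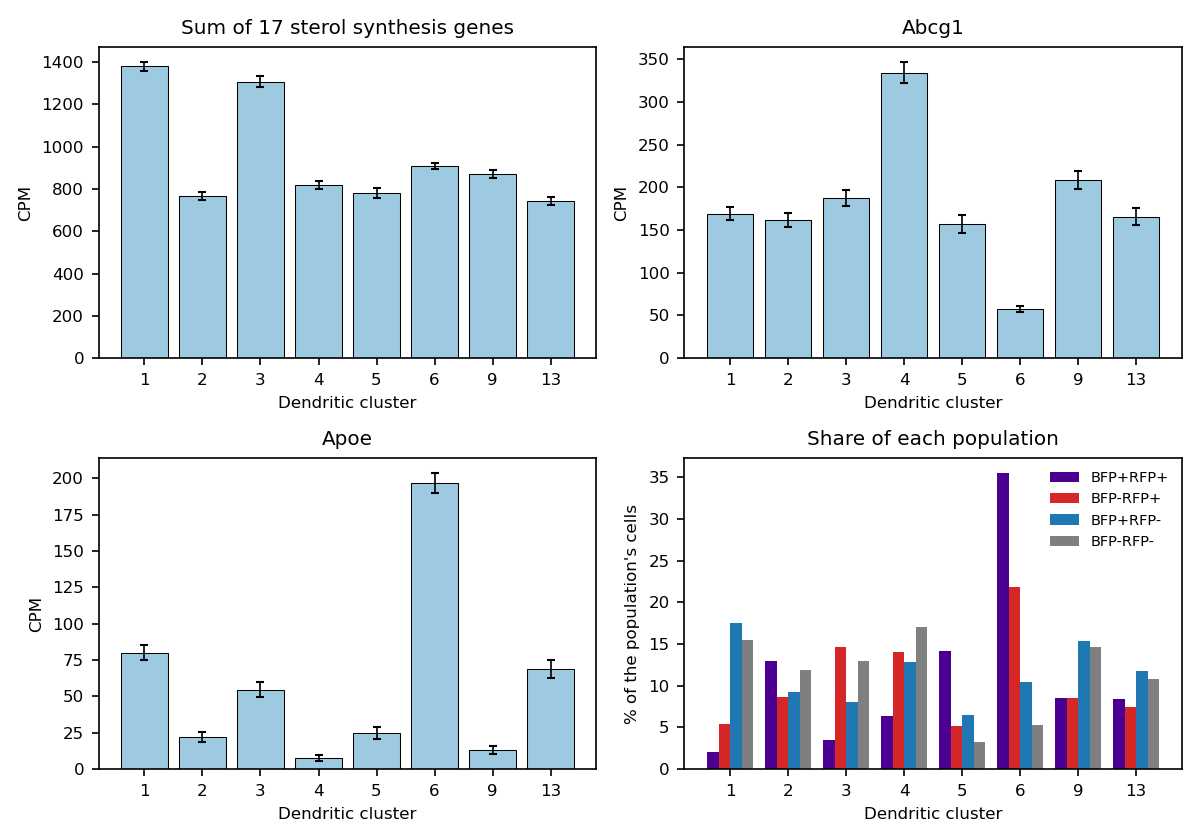
Levels in the 8 dendritic clusters of at least 20 cells (bars, CPM, with exact 95% Poisson intervals) of the sum of 17 sterol synthesis genes, of Abcg1 and of Apoe, and the share of each population in each cluster. Synthesis is highest in clusters 1 and 3, Abcg1 in cluster 4 and Apoe in cluster 6, which holds 35.5% of BFP+RFP+ and 5.33% of BFP-RFP- cells.

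Compared inside clusters, the difference by BFP was still seen in most of them and the one by RFP was smaller. By BFP, the sterol synthesis sum was lower in 6 of 7 clusters within RFP+ (median log2 -0.28, -0.61 to 0.10) and in 6 of 8 within RFP- (median -0.21, -0.66 to 0.018). Past the fold limit it was lower in 3 of 7 and 3 of 8 clusters. With the same mix of dendritic clusters, the medians of all genes by BFP were -0.064 and -0.069. The difference in the sum was most pronounced in cluster 4, at 576 against 882 CPM in RFP+ and at 679 against 1075 CPM in RFP- cells. It was not seen in cluster 6, the largest cluster of both RFP+ populations, at 909 against 848 and at 955 against 942 CPM. By RFP, the median over clusters was -0.10 (lower in 6 of 7) within BFP+ and -0.055 (lower in 4 of 8) within BFP-.

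With the same mix of dendritic clusters in each population, sterol synthesis genes past the fold limit by RFP, in either direction, numbered 4 within BFP+ and 2 within BFP-, in place of 7 and 6. The share of all genes past the limit was not counted with this mix. The median log2 ratios of all genes were then -0.0028 and -0.0073. For Abcg1 the median by RFP within clusters was -0.15 (lower in 7 of 7) and -0.10 (lower in 5 of 8), against -0.61 and -0.44 over whole populations. Stard4 was lower by BFP in 7 of 7 clusters within RFP+ and in 7 of 8 within RFP-, with medians of -0.70 and -0.43. Apoe was below 0 by BFP in 7 of 7 clusters within RFP+ (median -1.06) and in 5 of 8 within RFP- (median -0.21, with 2 higher past the fold limit). By RFP it was higher past the fold limit in 2 of 7 clusters and lower past it in 3 of 7 within BFP+ (median 0.12). Within BFP- it was higher past the limit in 6 of 8 and lower in 1 (median 0.98). These values rest on few cells, since 5 cells held 34.3% to 70.1% of the Apoe UMIs in clusters 1, 2, 3, 5, 9 and 13.

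**Figure D4:**
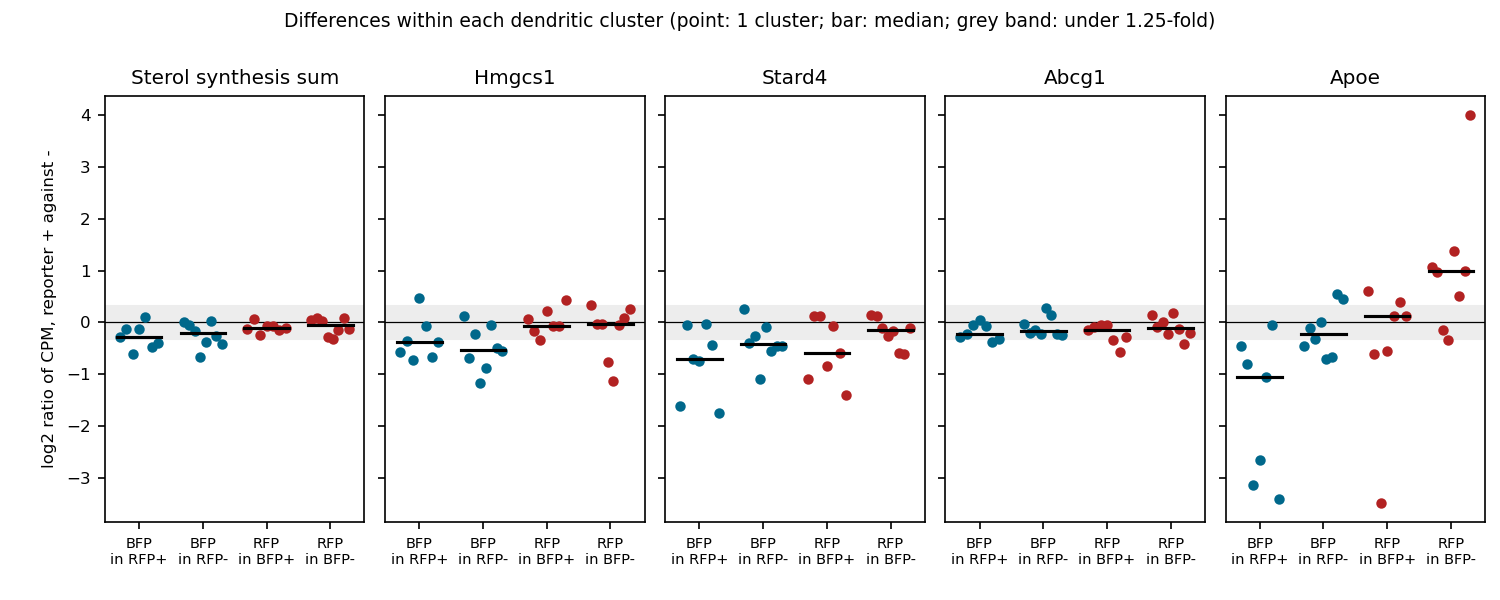
Log2 ratios inside each dendritic cluster with at least 20 cells on both sides (1 point per cluster, bar at the median) for the sterol synthesis sum, Hmgcs1, Stard4, Abcg1 and Apoe, by BFP (blue) and by RFP (red). The sterol synthesis sum lies below 0 by BFP in 6 of 7 and 6 of 8 clusters, its points by RFP lie closer to 0, and Apoe spreads widest.

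Antibody tags give a second reading of the same cells. CD11b and CD172a (SIRP alpha) are myeloid surface proteins of type 2 dendritic cells, CD301b is a lectin of dermal type 2 dendritic cells, and CD8a marks other dendritic subsets. Cells were cut into 3 equal parts (tertiles) by the UMIs of each tag, and the top was compared with the bottom tertile. The tags differed by population, with medians for CD8a of 121, 63, 42 and 40 UMIs and for CD172a of 64, 99, 92 and 129 UMIs across the 4 populations. Cells rich in any of the 4 tags also had more mRNA, for CD172a a median of 17277 against 11928 UMIs.

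Depth itself went with these genes. Between tertiles of cells by mRNA UMIs, 13 of 17 sterol synthesis genes were higher in the deepest tertile and 0 lower, where 13.8% of all genes were higher and 34% lower. Fdps was at 73.5 and 153 CPM and Hmgcs1 at 71.8 and 111 CPM in the bottom and top tertile, while Abcg1 was the reverse, at 208 and 133 CPM. The tag comparisons were therefore also made with tertiles cut inside 5 depth classes of each population, an alternative added after the values had been seen. These matched tertiles had medians of 14541 and 14802 UMIs for CD172a.

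By CD172a, 8 of 17 sterol synthesis genes were higher in the top tertile and 0 lower, where 12.4% of all genes were higher and 23.9% lower, but after matching 0 were higher and 2 lower, Fdps and Ebp, where 12.3% of all genes were higher and 21.8% lower. Insig1, Stard4 and the exporters differed after matching too. Insig1 was at 18.5 CPM in the bottom and 28.8 in the top tertile, log2 0.64 (0.47 to 0.80), and Stard4 at 15.2 and 23.4, log2 0.62 (0.44 to 0.81). Abca1 was at 4.65 and 12.0 CPM, log2 1.37 (1.07 to 1.69), and Abcg1 at 123 and 183, log2 0.58 (0.51 to 0.64). Within dendritic clusters the matched values were 1.70 for Abca1 and 0.52 for Abcg1, so both exporters were higher there too, whereas Apoe was at 0.055 over all cells and at -0.87 within dendritic clusters.

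By CD8a most values were below 0 after matching. In the matched tertiles, 16 of 17 sterol synthesis genes were below 0, with a median of log2 -0.19 beside -0.058 for all genes. Of the 17 genes, 5 were lower past the fold limit and 0 higher, where 16.3% of all genes were lower and 7.44% higher. The 5 were Hmgcs1, Mvd, Sqle, Msmo1 and Nsdhl, and Hmgcs1 was at 109 CPM in the bottom and 85.7 in the top tertile, log2 -0.35 (-0.43 to -0.27). Srebf2 was at 104 and 77.5 CPM, log2 -0.43 (-0.51 to -0.35), and Insig1 at 27.0 and 20.3, log2 -0.41. Abca1 was at 9.82 and 5.81 CPM, log2 -0.75 (-1.05 to -0.47), and Abcg1 at 179 and 132, log2 -0.44 (-0.50 to -0.38). Of the 7 LXR and export genes, 3 were lower and 0 higher past the limit in the matched tertiles, beside the same 16.3% and 7.44%. Within dendritic clusters 2 were lower and 1 higher, and 3 of the 7 were above 0. The share of all genes was not counted there. The median of the 17 synthesis genes between unmatched tertiles was not the same in each population, at log2 0.014, -0.12, -0.13 and 0.19 across the 4, and that of the 3 sensing genes was -0.34, -0.27, -0.28 and 0.25. With tertiles cut in each population without matching for depth, 0 of 17 sterol synthesis genes were past the fold limit. The share of all genes past the limit was not counted with this cut. Without either step 3 of 17 sterol synthesis genes were lower and 0 higher, where 22.5% and 9.22% of all genes were.

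By CD11b, 9 of 17 sterol synthesis genes were higher in the top tertile and 0 lower, where 12.7% and 23.2% of all genes were. After matching 2 were higher, Mvd and Sqle, and 0 lower, where 11.9% and 18.8% of all genes were. Abca1 and Abcg1 were level after matching, at log2 0.0021 and -0.013, but within dendritic clusters Abca1 was at -0.90. Apoe was at 72.6 and 177 CPM, log2 1.28 over all cells and 0.48 within dendritic clusters. By CD301b, 4 of 17 were higher and 0 lower, where 8.27% and 18.4% of all genes were. After matching 1 was higher, Pmvk, and 0 lower, where 7.25% and 17.4% were. Abca1 was higher with CD301b after matching, at log2 0.73 (0.44 to 1.02), and Apoe lower, at -0.74 (-0.82 to -0.67).

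Nr1h3 had the largest tag differences, at matched log2 2.24 by CD11b and 2.33 by CD172a. The macrophage-like cluster made up 5.32% of the top and 0.408% of the bottom unmatched tertile by CD11b, and within dendritic clusters the matched values were 0.54 and 0.78. Elovl6 was higher in CD8a-rich cells after matching, at log2 0.39, but at 0.30 (-0.097 to 0.71), inside the fold limit, within dendritic clusters. It was lower with CD11b, CD172a and CD301b, at -0.67, -0.67 and -0.78 over all cells and at -0.31, -0.47 and -0.66 within dendritic clusters, the first of them inside the limit.

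**Figure D5:**
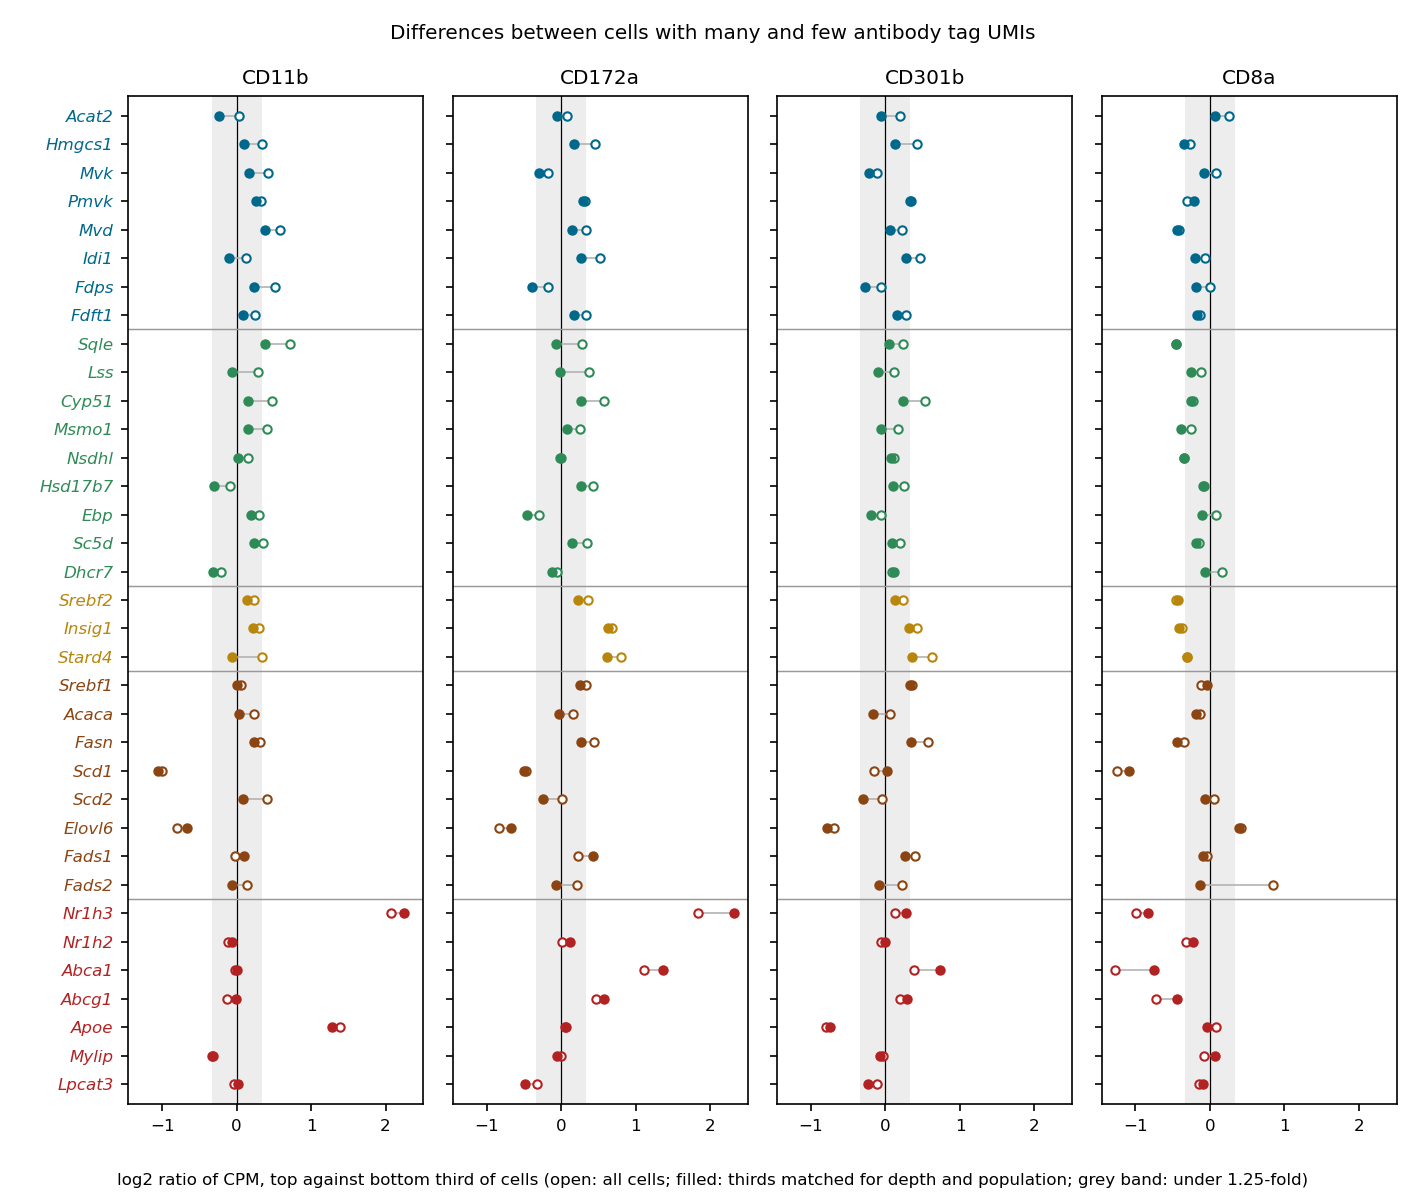
Log2 ratio of CPM between the top and bottom tertile of cells by each antibody tag, for all cells (open) and for tertiles matched for depth and population (filled). The grey band marks differences inside the fold limit (log2 0.32). Matching draws the sterol synthesis genes towards 0 for CD11b, CD172a and CD301b but not for CD8a, and Insig1, Stard4, Abca1 and Abcg1 stay to the right for CD172a (0.64, 0.62, 1.37 and 0.58).

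Other genes of the pathway were read from a list of 41, of which 34 had at least 100 UMIs, while Vldlr had 0 UMIs. Among them were 7 further sterol synthesis genes. Of these 7, by BFP 0 were lower and 0 higher past the fold limit in both RFP states, beside 8.23% and 2.25% of all genes. By RFP, too, 0 were lower and 0 higher in both BFP states, beside 5.9% and 5.13% of all genes. By BFP, 5 of 8 genes of uptake, esterification and lysosomal release were lower in both RFP states, namely Lrp1, Scarb1, Npc2, Lipa and Nceh1, and 0 were higher, beside 8.23% and 2.25% of all genes. Dendritic clusters held 94.0% of the UMIs of Npc2 but 56.0% to 67.6% of those of the other 4, and within these clusters Scarb1 was at log2 0.27 by BFP within RFP+. Npc2, which takes cholesterol out of the lysosome, had 474, 712, 779.8 and 1034 CPM, log2 -0.59 and -0.41 by BFP and -0.72 and -0.54 by RFP. Its partner Npc1, the lysosomal membrane protein, was in contrast above 0 by RFP, at 0.23 and 0.41.

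Of 6 further LXR partners and targets, 2 were lower by BFP in both states, beside the same 8.23% of all genes. They were Rxra, the LXR partner, and Pltp, a phospholipid carrier, but only 25% of Pltp UMIs came from dendritic clusters. Within these clusters 2 of the 6 were lower by BFP within RFP+ (20.7% of all genes) and 1 within RFP- (14.6%). Arl4c, an LXR target, had 139.7, 161, 165 and 189.6 CPM, the same order as Abcg1. It was the only 1 of the 6 that was lowest in BFP+RFP+ and highest in BFP-RFP- cells, as 26.6% of all genes were. Of 10 further fatty acid genes, 2 were lower by BFP in both states, again beside 8.23% of all genes. They were the acyl-CoA synthetases Acsl1 and Acsl3. Within dendritic clusters 2 of the 10 were lower by BFP within RFP+ (20.7% of all genes) but only 1 within RFP- (14.6%). At most 1 of these 2 synthetases was therefore lower past the limit in both states there. Over all kept cells, 2 of the 10 were lower by RFP in both BFP states, beside 5.9% of all genes. They were Acsl3 and Cpt1a, which brings fatty acids into mitochondria for oxidation, the latter at log2 -0.44 and -0.83.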

How the data were processed

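The mRNA, antibody tag and hashtag counts (UMIs) were deposited by the authors as 1 raw matrix of 6079 barcodes. Per the file headers the matrix comes from Cell Ranger 7.0.0, and per the submitters' processing notes the build was GRCm39. The sources used here do not give strand settings or cell calling, so reads of overlapping genes (such as Fdft1 and Ctsb) may be mixed. Barcodes with 1 hashtag at 80% or more of hashtag UMIs (5380) were kept with at least 1000 mRNA UMIs (213 removed) and at most 10% mitochondrial UMIs (144 removed), which removed 4.10%, 8.22%, 3.32% and 13.5% of the cells across the populations, in the order of the report. Doublets within a population cannot be seen by hashtags and no caller was run. UMIs were summed per population, scaled per 1000000, and compared on the log2 scale after adding 0.5 UMI. A gene was called higher or lower past the fold limit (log2 0.32) among the 10888 genes with at least 100 UMIs. Clusters were made in scanpy 1.11.5 (2000 variable genes, 30 components, 15 neighbours, Leiden resolution 0.5) without the members, the other pathway genes, the reporters, Tnfsf4 and Siglech. A cluster was dendritic when at least 6 of 8 migratory dendritic markers were each detected in at least 20% of cells and other markers did not lead. TMM (edgeR 4.0.16) and median-of-ratios factors (DESeq2 1.42.0) served as other scalings only. The computation was checked on simulated data. The members, lists and named genes (every member, and other pathway genes lower or higher in both states) were chosen with earlier results of these data known. Gene symbols came from the deposited list, and 22404 IDs matched the gene name table. Some items are not reported here.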

Additional observations from a re-analysis of the deposited data

Results flagged for a closer look

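Elovl6, the elongase, differed in opposite directions in the 2 states of the other reporter, and the difference between the states was not tested. By BFP it was at log2 0.77 (0.35 to 1.20) within RFP+ and at -0.41 (-0.77 to -0.03) within RFP-. By RFP it was at 0.77 (0.42 to 1.11) within BFP+ and at -0.41 (-0.85 to 0.03) within BFP-. These 4 values share the same 4 populations, so they are 1 observation and not 2. The gene had 478 UMIs in all, 10.3% of them in 5 cells and 70.5% in dendritic clusters, and the T and NK cell-like cluster had 32.1 CPM. Within dendritic clusters the 4 values were 1.20, -0.38, 1.05 and -0.54.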

How the results depend on the processing

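No paired analysis was possible because the 4 populations came from 1 capture without replicates, and for the same reason no sample could be left out. Counts of genes past the fold limit (log2 0.32) are given here as totals of both directions. By BFP within RFP-, 14.6% of all genes were lower and 5.72% higher in dendritic clusters. With TMM scaling 10.2% were lower and 7.83% higher, and with median-of-ratios scaling 10.2% and 7.87%. For depth-matched tertiles the shares stand above. For the other alternatives no share of all genes was counted, so their counts show how a list moved and are not results about these genes. Of 118 member values past the fold, 110 kept their sign under every alternative run (13 for each population comparison and 6 for each tag). The alternative without a filter on UMIs per gene could not change them, since every member passed that filter. A kept sign does not mean that a value stayed past the limit. By BFP within RFP-, the fatty acid count of 3 was 6 in dendritic clusters, with the same mix of clusters, with each cell weighted alike and with the same mix of depth. There the LXR and export count of 4 was 1 in dendritic clusters, 2 with the same cluster mix and 2 with cells weighted alike, and the sterol synthesis count of 5 was 2 with either TMM or median-of-ratios scaling and 8 with the same mix of depth. With the same cluster mix the RFP counts were 4 (sterol synthesis) and 2 (LXR) within BFP+, and 2 (sterol synthesis) and 3 (LXR, with 2 higher and 1 lower, a turn in direction) within BFP-. Without the 5 highest cells of each gene, the fatty acid count by RFP within BFP- was 1, a higher gene. For CD11b, sterol synthesis gave 5 with centred log ratios of tags, 4 with a split at the median and 2 with depth-matched tertiles, and LXR 4 with cells weighted alike. For CD172a, sterol synthesis gave 4 with tertiles cut in each population, 4 with centred log ratios, 2 with a split at the median and 2, both lower, with depth-matched tertiles. For CD301b, sterol synthesis gave 1, lower, with centred log ratios, 2 with a split at the median, 11 with cells weighted alike and 1 with depth-matched tertiles, and LXR 1 with tertiles cut in each population and 4 with centred log ratios. For CD8a, sterol synthesis gave 0 with tertiles cut in each population, 10 with centred log ratios, 1 with cells weighted alike and 5 with depth-matched tertiles. Signs turned for Scd1 by BFP within RFP+ (0.072 with the same mix of depth), Nr1h3 by BFP within RFP- (0.12 in dendritic clusters, 0.058 with the same cluster mix) and Apoe by RFP within BFP+ (-0.18 with the same cluster mix). For tags they turned for Stard4 by CD11b (-0.085 with centred log ratios, -0.064 depth-matched), Scd1 by CD172a (0.89 in dendritic clusters), Lss by CD172a (-0.016 depth-matched), Abca1 by CD301b (-0.052 with cells weighted alike) and Fads2 by CD8a (-0.13 depth-matched). The cause of these turns was not tested. Both the same mix of depth and the depth-matched tertiles were chosen after seeing the data. Members under about 100 UMIs per population, such as Lss, Fads1 and Fads2, have wide intervals, and differences inside the fold limit were not detectable for them at this depth.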

Other observations

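Of 5 oxysterol genes, 3 had at least 100 UMIs, and by RFP 2 of these were higher in both BFP states, Gpr183 and Cyp7b1, and 1 lower, Cyp27a1, where 5.13% and 5.9% of all genes were. Gpr183, the receptor by which immune cells follow oxysterol gradients in lymph nodes, had 843 CPM in double positive, 706 in RFP single positive, 440.3 in BFP single positive and 348 in double negative cells. Each RFP+ population lay above each RFP- population, with a log2 ratio of 0.94 (0.90 to 0.97) in BFP+ cells and of 1.02 (0.97 to 1.07) in BFP- cells. By the tags after matching for depth and population, it was lower with CD172a, at -0.77 (-0.80 to -0.73), and higher with CD8a, at 0.50 (0.47 to 0.54), the reverse of Abcg1. Cyp7b1, which makes one of its ligands, had 17.4, 49.1, 10.7 and 24.8 CPM in the same order of populations, higher by RFP at 0.70 and 0.98 and lower by BFP at -1.49 and -1.21. Only 60.1% of Cyp7b1 UMIs lay in dendritic clusters and 5 cells held 19.8%. Within dendritic clusters its values by BFP were -0.53 and -0.60. Cyp27a1, which makes an oxysterol that activates LXR, ran the other way by RFP, with 18.3, 25.7, 27.8 and 35.9 CPM and log2 -0.60 and -0.48. Ch25h, the enzyme of a further oxysterol, had 8 UMIs in all and Hsd3b7 17, too few to compare.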
